A study of Mus musculus with 7 samples.

Results

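The 33 genes described here encode proteins of the cell junctions that make up the blood-testis barrier and attach Sertoli cells to each other and to germ cells. They were chosen by symbol for their known function, at a time when earlier results of these data were known. They are 33 of 18336 genes with a probe set of their own on either array design. By role, 14 belong to the tight junction, 12 to the adherens junction and the ectoplasmic specialization, 6 to the desmosome and 1 to the gap junction. RNA was measured on 7 mouse Affymetrix arrays. The arrays held whole testis of ERM knockout and wild-type mice at 4 weeks, primary Sertoli cells of ERM knockout mice at 4 weeks, of ERM knockout mice at 10 weeks and of wild-type mice at 4 weeks, and the TM4 line with and without transfection of ERM. ERM is the ETS family transcription factor encoded by Etv5, and TM4 is an established mouse line derived from Sertoli cells. The strain of the mice, the deleted part of Etv5, the transfection and the purity of the Sertoli preparations are not given in the labels. Each group was 1 array, so no difference had a replicate check and no test across samples could be made. The Sertoli and TM4 arrays carried probe sets for all 33 genes (91 in all), and the testis arrays for 27 of them (43 in all). Tjp3, Jam2, Cgn, Esam, Afdn and Espn were not on the testis arrays.

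Sertoli cells line the seminiferous tubule and close it into compartments with junctions near their base. Claudins and occludin form the sealing strands of the tight junction, the JAM proteins are immunoglobulin-type adhesion molecules beside them, and Tjp1 (ZO-1) and cingulin tie the strands to actin. In the testis these tight junctions lie side by side with an actin-rich adherens junction, the ectoplasmic specialization, in which cadherins and nectins bind across the gap and catenins, afadin, vinculin and espin link them to actin bundles. Cldn11 is known to be required for the barrier in mice, and nectin-2 on the Sertoli cell is known to bind nectin-3 on the spermatid.

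Intensities were scaled so that every array had the same trimmed mean of 500, and readings under a floor of 100 were set to the floor before a ratio was taken. A ratio in which 1 array lay under the floor is therefore a bound, and none was formed when both did. All ratios are log2 ratios, and 2-fold is a log2 ratio of 1. The only measure of error was the spread of log2 ratios among probe sets of the same bright gene on the same pair of arrays. Its standard deviation was 0.20 for Sertoli knockout against wild type at 4 weeks, 0.18 for the 10-week knockout against wild type, 0.25 between the knockout ages, 0.15 in TM4, 0.46 for Sertoli cells against TM4 and 0.25 in testis. It covers probe sets within 1 pair of arrays and not animals or cultures.

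The labels and the arrays were examined before the junction genes. Etv5 was not lower on the knockout Sertoli arrays, and no probe set on the testis arrays was annotated to it. Its brightest probe set read 910 in knockout Sertoli cells at 4 weeks and 995 at 10 weeks, against 710 in wild type, and 473 in TM4 with ERM against 405 without. Where these probe sets lie relative to the deletion is not known, so knockout below means the array labelled so. The 4-week knockout Sertoli array stood apart in its 18S ribosomal RNA control, at 4551 on the 5' probe set against 236 to 352 on the other 4 Sertoli and TM4 arrays. Gapdh 3' to 5' ratios lay between 0.777 and 0.829 on these 5 arrays and were 1.04 in knockout and 1.03 in wild-type testis. Of 17 Sertoli cell markers with a probe set, all 17 reached the floor on each of the 3 primary Sertoli arrays and 14 did so on each TM4 array. Sox9, which directs Sertoli cell fate, read 6439, 6380 and 5220 in 4-week knockout, 10-week knockout and wild-type Sertoli cells, but 150 and 95.1 in TM4 with and without ERM. Of the 17 markers, 12 were at least 2-fold higher in wild-type Sertoli cells than in untransfected TM4 and 3 at least 2-fold lower. These 3 were Inhbb (318 against 3833), Amh (322 against 651) and Gdnf (238 against 525).

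The proximal promoters of 5 members are shown because these genes carry some of the main differences described below. Jam2 and Cdh1, which also differed strongly, had no promoter sequence to show. Cldn11, Ocln and Nectin2 were far brighter in primary Sertoli cells than in TM4, Lsr was the member furthest above wild type on the 4-week knockout Sertoli array, and Nectin3 was among the lowest at 10 weeks. Each runs 5' to 3' on the gene's strand, from 250 bases before to 50 bases after the start in RefSeq on GRCm38.p6. The positions are chr3:31149670-31149969 (plus strand) for Cldn11, chr13:100552669-100552968 (minus strand) for Ocln, chr7:19749524-19749823 (minus strand) for Nectin2, chr7:30973420-30973719 (minus strand) for Lsr and chr16:46496918-46497217 (minus strand) for Nectin3. Capitals mark CCGGAA, a core sequence of ETS factor sites, on either strand.
Cldn11: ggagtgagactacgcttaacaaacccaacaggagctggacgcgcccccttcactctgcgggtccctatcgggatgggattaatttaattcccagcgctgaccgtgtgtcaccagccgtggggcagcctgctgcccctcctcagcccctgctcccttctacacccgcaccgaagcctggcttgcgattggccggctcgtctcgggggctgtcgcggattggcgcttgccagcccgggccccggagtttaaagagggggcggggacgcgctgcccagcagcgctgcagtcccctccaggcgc
Ocln: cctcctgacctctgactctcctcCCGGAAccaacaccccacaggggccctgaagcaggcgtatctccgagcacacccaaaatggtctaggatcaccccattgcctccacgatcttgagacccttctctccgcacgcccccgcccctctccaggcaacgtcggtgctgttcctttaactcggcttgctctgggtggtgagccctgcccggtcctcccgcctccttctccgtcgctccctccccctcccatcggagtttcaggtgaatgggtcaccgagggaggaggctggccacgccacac
Nectin2: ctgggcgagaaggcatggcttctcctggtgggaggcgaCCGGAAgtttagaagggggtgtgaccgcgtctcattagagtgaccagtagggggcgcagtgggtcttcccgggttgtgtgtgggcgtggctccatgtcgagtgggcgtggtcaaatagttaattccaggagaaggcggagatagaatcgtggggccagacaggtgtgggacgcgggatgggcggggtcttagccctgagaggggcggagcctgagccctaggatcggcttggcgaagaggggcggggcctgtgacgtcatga
Lsr: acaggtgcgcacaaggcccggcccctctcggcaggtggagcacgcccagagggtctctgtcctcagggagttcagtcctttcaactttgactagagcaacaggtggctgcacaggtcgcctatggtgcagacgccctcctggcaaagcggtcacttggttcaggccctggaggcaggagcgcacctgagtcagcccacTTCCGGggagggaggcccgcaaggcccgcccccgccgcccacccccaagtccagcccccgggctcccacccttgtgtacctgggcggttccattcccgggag
Nectin3: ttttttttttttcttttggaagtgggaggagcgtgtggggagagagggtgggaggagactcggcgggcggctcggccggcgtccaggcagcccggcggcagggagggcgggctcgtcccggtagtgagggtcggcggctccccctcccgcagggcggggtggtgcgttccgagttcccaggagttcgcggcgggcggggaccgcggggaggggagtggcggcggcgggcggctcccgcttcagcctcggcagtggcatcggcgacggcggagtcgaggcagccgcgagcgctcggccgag

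CCGGAA was found in 3 of the 5 promoters shown. It lay 227 bases before the start in Ocln, 212 before it in Nectin2 and, on the opposite strand, 52 before it in Lsr. Of the 33 members 22 had a promoter in the table (for genes with several starts, the first listed), and 5 of these 22 (22.7%) held the motif, also Ctnnd1 and Itgb1. The share was 19.1% of 17491 protein-coding promoters and 15.2% of all 27025. The GC box GGGCGG, searched on both strands, was in 19 of the 22 member promoters, against 46.3% of protein-coding ones. No member promoter held TATAAA on either strand, against 13.3% of protein-coding promoters. These matches describe the letters of these windows and say nothing about binding.

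The claudin gene Cldn11, Ocln and the adhesion genes Jam2 and Nectin2 were bright in primary wild-type Sertoli cells and dim in TM4 on their brightest probe sets. Most other members differed less. The claudin genes Cldn3 and Cldn5 had log2 ratios of -0.26 and 0.00 on their brightest probe sets, but the mean over Cldn3 probe sets was -1.30. Among genes whose products reach actin, Tjp1 and Cgn were higher in Sertoli cells and Espn lower, while Ctnna1, Ctnnb1, Ctnnd1, Vcl and Afdn were within 2-fold. Of 31 members at or above the floor on either array, 14 (45.2%) were at least 2-fold higher in wild-type Sertoli cells, against a background of 17.8% of 16916 genes. Another 1 (Espn) was at least 2-fold lower, where the background was 16.1%. In both directions together 15 members (48.4%) were past 2-fold, against 33.9% of genes. The members' median log2 ratio was 0.66, against -0.08 for all genes. By role, 8 of 13 tight junction genes, 4 of 12 adherens and ectoplasmic specialization genes and 2 of 5 desmosome genes were at least 2-fold higher. Ocln, Jam2, Cdh1 and Dsg2 are among these, and their direction was fixed because TM4 was under the floor. The background holds genes of that kind as well, and no count without them was made.

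**Figure D1:**
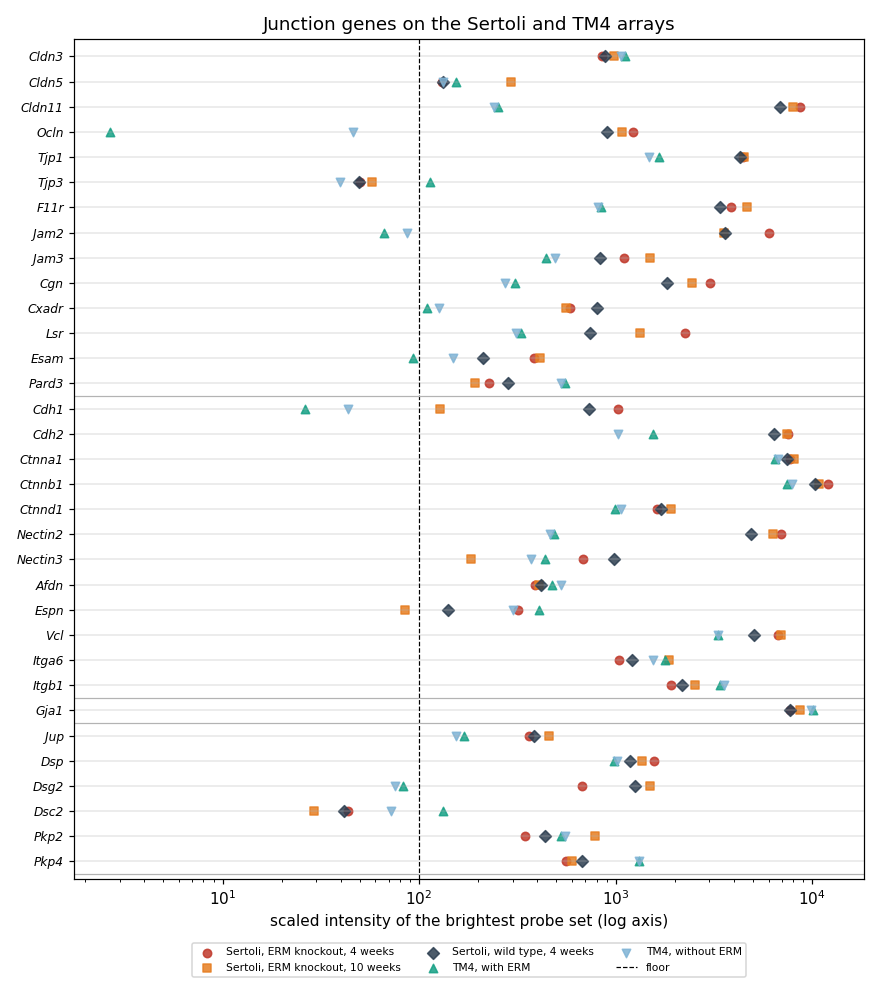
Scaled intensity (log axis) of the brightest probe set of each of the 33 junction genes on the 3 primary Sertoli arrays and the 2 TM4 arrays, 1 point per array, with lines between the roles and a dashed line at the floor of 100. Cldn11 lies at 6894 and above on the Sertoli arrays and at 252 and below on the TM4 arrays, while Gja1 lies between 7714 and 10093 on all 5.

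Cldn11 read 8662, 7957 and 6894 in 4-week knockout, 10-week knockout and wild-type Sertoli cells, and 252 and 240 in TM4 with and without ERM. Wild-type Sertoli cells were thus 28.7-fold above untransfected TM4 on its 1 probe set. All 3 primary arrays lay far above both TM4 arrays, and the primary arrays were close together. Ocln, the occludin gene, read 1223, 1074 and 903 in the same Sertoli arrays and 2.69 and 46.2 in TM4, both under the floor. The wild-type Sertoli array was at least 9.03-fold higher for Ocln. On the dimmer probe set the log2 ratio was 0.30, in the same direction.

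The genes of JAM-A and JAM-B were also higher in Sertoli cells. Jam2 (JAM-B) read 6032, 3539 and 3605 in 4-week knockout, 10-week knockout and wild-type Sertoli cells and 66.0 and 86.7 in TM4 with and without ERM. It was at least 36.1-fold higher in wild-type Sertoli cells than in untransfected TM4, and all 5 of its probe sets were higher there, by log2 ratios from 0.31 upward. F11r (JAM-A) was 4.19-fold higher, at 3389 against 809, and its second probe set gave a larger log2 ratio, 3.63. Tjp1 (ZO-1), a scaffold under the strands, was 2.90-fold higher at 4311 against 1486. Cgn (cingulin), which binds actin and the scaffold, was 6.70-fold higher at 1835 against 274, but its dimmer probe set went the other way with a log2 ratio of -1.36. Cxadr, an immunoglobulin-type tight junction receptor, was 6.34-fold higher at 805 against 127, with 3 of 4 detected probe sets in that direction. Lsr, which marks corners where 3 cells meet, was 2.39-fold higher at 741 against 310, but the other probe set gave -0.36.

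Among claudins the line was not simply dimmer. Cldn3, a claudin of newly formed barrier junctions, read 857, 985 and 886 in the 3 Sertoli arrays and 1111 and 1063 in TM4 with and without ERM. On another of its probe sets, however, Cldn3 was under the floor in all 3 Sertoli arrays (56.0 to 73.3) and read 454 and 520 in TM4. A further probe set read 219 in wild-type Sertoli cells and 527 in untransfected TM4. The Cldn3 probe sets thus disagree on the size of the difference, and their mean log2 ratio was -1.30. Cldn5 read 133 in wild-type Sertoli cells and 133 in untransfected TM4, just above the floor. Jam3 (JAM-C) stood at a log2 ratio of 0.76 on the brighter and -0.74 on the dimmer probe set, with a mean of 0.01. Esam, an adhesion molecule of endothelium, had 0.51. Pard3, a polarity scaffold, had -0.90, with all 4 probe sets below 0. Tjp3 (ZO-3) was under the floor in both.

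The cadherins and nectins also stood apart. Cdh2 (N-cadherin), the main cadherin of the Sertoli cell, read 7574, 7471 and 6394 in 4-week knockout, 10-week knockout and wild-type Sertoli cells, against 1558 and 1023 in TM4 with and without ERM. Wild-type Sertoli cells were 6.25-fold above untransfected TM4 on one probe set and at a log2 ratio of 2.86 on the other. Nectin2 read 6918, 6327 and 4894 in the Sertoli arrays and 488 and 466 in TM4, 10.5-fold higher in wild-type Sertoli cells, with both probe sets past 2-fold. Both TM4 arrays thus lay well below every primary array for these adhesion genes. Cdh1 (E-cadherin) was at least 7.34-fold higher, at 734 against 43.5, and Nectin3 2.62-fold higher, at 978 against 373, with 1 of its 4 detected probe sets at -0.30.

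The cytoplasmic partners were closer in level. Ctnnb1 (beta-catenin) read 10278 in wild-type Sertoli cells and 7877 in untransfected TM4, Ctnna1 (alpha-catenin) 7487 and 6694, and Ctnnd1 (p120 catenin) 1694 and 1071. Vcl (vinculin) had a log2 ratio of 0.60 and Afdn (afadin) of -0.34. Espn (espin), the actin bundler named for the ectoplasmic specialization, was dim and 2.15-fold lower in wild-type Sertoli cells, at 140 against 302. Itgb1, the integrin beta-1 chain, had -0.71 on its brightest probe set but 3.78 on another, which read 1374 against 78.0. Itga6, its alpha-6 partner, had -0.35.

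Gja1 (connexin 43), the main gap junction protein of Sertoli cells, was bright everywhere. Its brightest probe set read 7714, 8632 and 7742 in 4-week knockout, 10-week knockout and wild-type Sertoli cells and 10093 and 9898 in TM4 with and without ERM. Its Sertoli to TM4 log2 ratio of -0.35 turned to 0.35 with the values as deposited and to 0.06 after quantile normalization. In the desmosome, Dsg2 (desmoglein-2) was at least 12.6-fold higher in wild-type Sertoli cells at 1261 against 75.8. Only 3 of its 5 detected probe sets agreed, and another read 189 against 662, the opposite direction. Jup (plakoglobin) read 383 against 153, a log2 ratio of 1.32. Dsp (desmoplakin), Pkp2 and Pkp4 (plakophilins) had 0.21, -0.35 and -0.97, and Dsc2 (desmocollin-2) was under the floor in both.

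**Figure D2:**
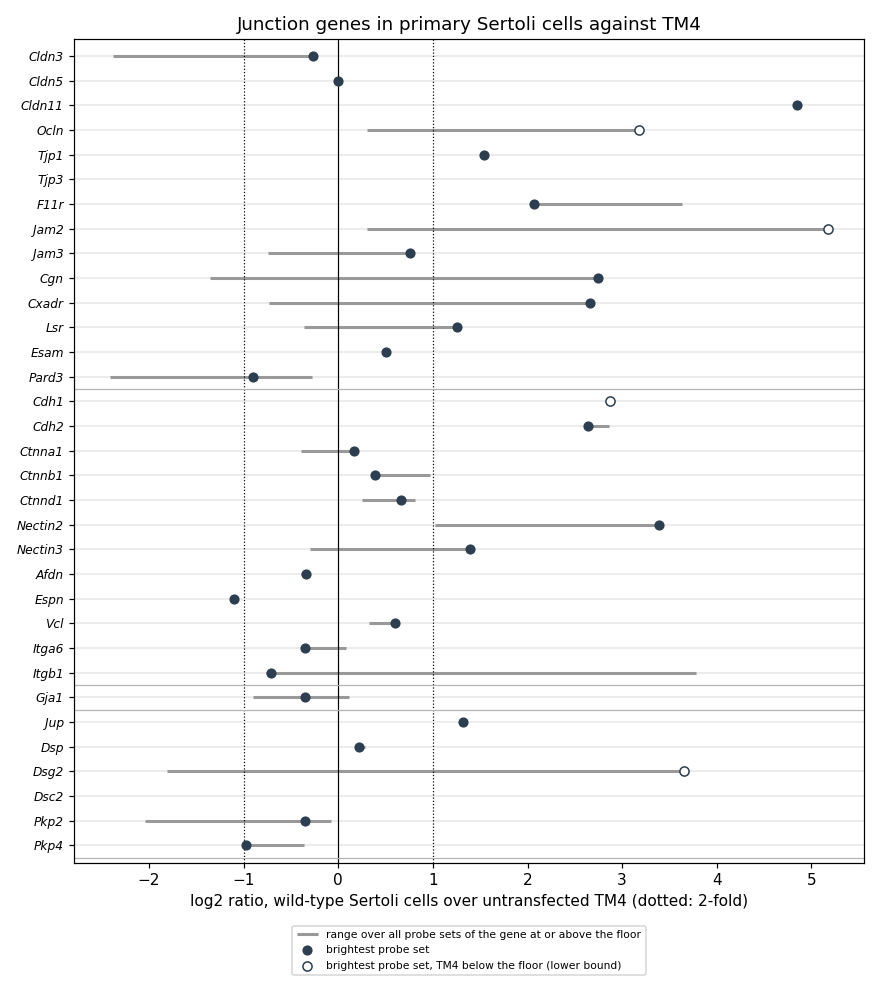
Log2 ratio of wild-type Sertoli cells over untransfected TM4 for each junction gene, with points for the brightest probe set, open where TM4 was under the floor, and grey bars for the range over all detected probe sets. Cldn11, Jam2 and Nectin2 lie furthest to the right among tight and adherens junction genes, and the bars of Cgn, Cxadr, Dsg2 and Itgb1 reach both sides of 0.

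Requiring all detected probe sets to agree left 10 of the 15 members past 2-fold (9 higher and Espn lower). Of those kept, Cldn11, Tjp1, Cdh1, Jup and Espn had only 1 probe set each, so the rule could not remove them. The share of all genes kept by this rule was not counted. The genes not kept were Cgn, Cxadr, Lsr, Nectin3 and Dsg2. As means over probe sets Cgn (0.69), Lsr (0.45) and Nectin3 (0.76) were under 2-fold, and with a floor of 0.4 of the trimmed mean so was Espn (-0.59). As a mean over probe sets Cldn3 (-1.30) was instead past 2-fold, lower in wild-type Sertoli cells. Ocln, Jam2, Cdh1 and Dsg2 entered the comparison only through the Sertoli array, so the direction of their bounds was fixed by the floor. Scaling mattered here, because TM4 arrays were deposited at a lower overall level. With the values as deposited, the median of all genes moved to 0.60 and that of the members to 1.37, and Cldn3, Afdn, Itga6, Gja1 and Pkp2 changed sign. Germ cell markers differed between the same arrays, with a summed level over 15 spermatogonia and spermatocyte genes of 21753 in wild-type Sertoli cells and 2353 in untransfected TM4. Macrophage markers summed to 13610 in wild-type Sertoli cells and 3837 in untransfected TM4, and the part of both lists in the junction differences was not tested.

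In 4-week Sertoli cells 29 of the 31 measured junction genes were within 2-fold between knockout and wild type. Of the 31, 14 were higher and 7 lower by more than the probe set spread of 0.20, which came from bright genes. The share of all genes past that spread was not counted. The members' median log2 ratio was 0.05, against -0.02 for all genes, with 17 above and 14 below 0. Of all genes, 7640 were above 0 and 8220 below. Lsr and Espn (6.45% of 31) were at least 2-fold higher in the knockout, where the background was 0.681% of 15860 genes. No member was at least 2-fold lower, against 3.18%, and the background for both directions together was 3.86%. The tight junction genes had a median of 0.33, the adherens and ectoplasmic specialization genes of 0.14 and the desmosome genes of -0.26.

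Lsr read 2243 and 1333 in 4-week and 10-week knockout Sertoli cells, against 741 in wild type. It was 3.03-fold higher at 4 weeks and 1.80-fold higher at 10 weeks, so both knockout arrays lay above the wild-type one. Its other probe set stayed under the floor on all 3 Sertoli arrays. Espn read 320 and 84.5 in the same knockout arrays, against 140 in wild type, and was 2.28-fold higher at 4 weeks on its 1 probe set. The 2 knockout arrays therefore lay on opposite sides of the wild-type array, and all 3 values were dim.

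Several members differed by less than 2-fold. Jam2 had a knockout to wild-type log2 ratio of 0.74 at 4 weeks with all 5 probe sets above 0 (0.06 to 0.91), and of -0.03 at 10 weeks. Cgn had 0.72 and 0.14 on its probe sets at 4 weeks and 0.42 and 0.72 at 10 weeks. Nectin2 had 0.50 and 0.58 at 4 weeks and 0.37 and 0.05 at 10 weeks. Esam read 382 and 412 in 4-week and 10-week knockout cells, against 213 in wild type, a log2 ratio of 0.85 and 0.95 on its 1 probe set. Vcl had 0.40 and 0.46 at 4 weeks and 0.46 and 0.60 at 10 weeks. Cgn, Nectin2, Esam and Vcl were thus higher on both knockout arrays, and Jam2 on the 4-week one. The dimmer probe sets of Cgn at 4 weeks and of Nectin2 at 10 weeks lay within the probe set spread. Cldn11 stood at 0.33 at 4 weeks on 1 probe set, and Ocln at 0.44 and 0.57. On the lower side at 4 weeks were Dsg2 (-0.90 on its brightest and -0.38 as a mean over 5 detected probe sets), Nectin3 (-0.52, all 4 detected probe sets below 0) and Cxadr (-0.46, with 1 of 4 at 0.15). Tjp1 (0.04), Ctnna1 (0.05), Cldn3 (-0.05), Cldn5 (-0.02), Ctnnd1 (-0.07) and Gja1 (-0.01) lay within the probe set spread on their brightest probe sets. Without probe sets that may cross-hybridise Ctnna1 was at 0.45 and Ctnnd1 at 0.27, and as a mean over probe sets Cldn3 was at 0.21, all beyond that spread.

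**Figure D3:**
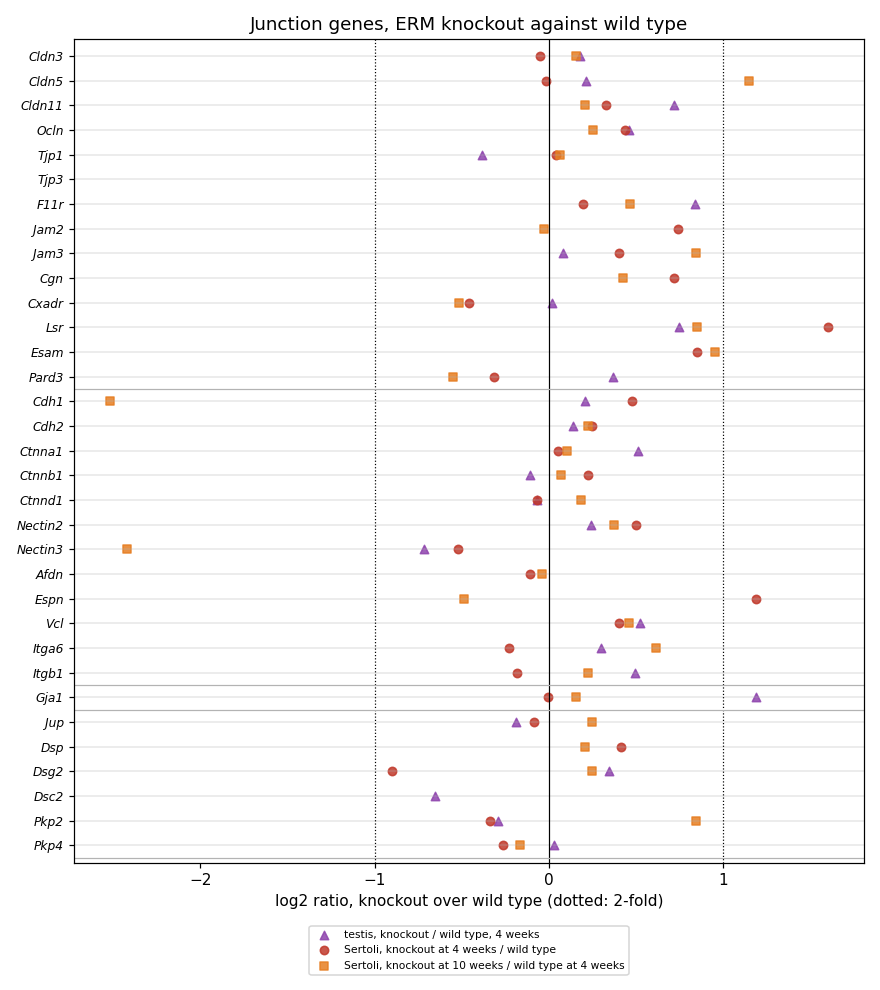
Log2 ratio of knockout over wild type for each junction gene in testis at 4 weeks (triangles), in Sertoli cells at 4 weeks (circles) and in 10-week knockout against 4-week wild-type Sertoli cells (squares), with dotted lines at 2-fold. Lsr lies to the right in all 3 (0.74, 1.60 and 0.85), Nectin3 to the left in all 3 (-0.72, -0.52 and -2.42), and Cdh1 is far left only at 10 weeks (-2.51).

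Markers of other cell types differed between these arrays as well. Over 13 macrophage markers the summed level was 5616 and 9357 in 4-week and 10-week knockout Sertoli cells, against 13610 in wild type, and 11 of the 13 reached the floor on each. Over 17 Sertoli cell markers it was 92462 and 87072, against 81827. Leydig cell markers summed to 7366 and 8647, against 4508, fibroblast markers to 6634 and 10892, against 11709, and peritubular and smooth muscle markers to 13127 and 15597, against 9179. For 15 endothelial markers, relevant to Cldn5, Esam and Jam2, the sums were 3149 and 3773, against 3231, with 10 and 11 at the floor or above, against 10. Of these, Pecam1 was under the floor (63.2 and 74.7, against 55.2), Cdh5 read 131 and 143, against 138, and Eng 1028 and 1037, against 1060. Kdr read 263 and 432, against 284, and Robo4, like Esam higher on both knockout arrays, 281 and 267, against 133. The part of these marker differences in the junction values was not tested. In samples of many cells such as these, fewer cells of a type and less RNA per cell cannot be told apart.

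In whole testis most junction genes were slightly higher in the knockout. Of 26 members at or above the floor, 19 were above 0 and 7 below, whereas of all 7515 genes 3596 were above 0 and 3919 below. The members' median log2 ratio was 0.21, against -0.01 for all genes. Among 15 Sertoli cell markers 9 were above 0 and 6 below, also with a median of 0.21. Gja1 was the 1 member (3.85%) at least 2-fold higher, where the background was 0.532%, and none was at least 2-fold lower, where it was 0.852% (1.38% in either direction). Gja1 read 2398 in knockout and 1052 in wild type, a 2.28-fold difference, and 709 and 487 on its second probe set (log2 ratio 0.54). The mean log2 ratio over both was 0.87, under 2-fold, and both probe sets are of a kind that may cross-hybridise. Among strand and adhesion genes, F11r read 1044 in knockout and 585 in wild type (0.84), Cldn11 971 and 590 (0.72), and Ocln 350 and 254 (0.46). Lsr read 1751 in knockout and 1046 in wild type, a log2 ratio of 0.74 on the brighter probe set and 0.81 on the dimmer. It was thus higher in knockout testis as well as in both knockout Sertoli arrays.

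Among adherens and ectoplasmic specialization genes, 7 of 10 lay above 0 in testis, with Vcl at 0.52 and 0.37, Ctnna1 at 0.51 and Itgb1 at 0.50 and 0.57 over their detected probe sets. Ctnnb1 stood at -0.11 and Ctnnd1 at -0.07 and -0.01. Nectin3, whose product sits on spermatids, was lower at 209 in knockout against 342 in wild type (-0.72, and -0.17 on its other probe set). Dsc2 was lower at 335 against 527 (-0.65 and -0.62), and Tjp1 at -0.38 and -0.17. Nectin2 (0.24 and 0.17), Cdh2 (0.14), Cdh1 (0.21), Cldn3 (0.18) and Cldn5 (0.21) were within the probe set spread of 0.25. Dsp was under the floor on both arrays. Sertoli cell markers summed to 23430 in knockout and 18951 in wild-type testis over 15 genes, spermatogonia and spermatocyte markers to 7783 and 9580 over 10, and fibroblast markers to 6841 and 4698 over 10. Spermatid markers, the cell type named for Nectin3, summed to 72387 in knockout and 63336 in wild-type testis, and all 10 were above 0. Macrophage markers summed to 5082 in knockout and 3862 in wild type, and Leydig cell markers to 11302 and 9519. Their part in the testis values was not tested.

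At 10 weeks the adhesion genes Cdh1 and Nectin3 stood out as low in knockout Sertoli cells, while Cldn11 and Tjp1 were near their 4-week levels. Against 4-week wild type, Cdh1 and Nectin3 (6.45% of 31 members) were at least 2-fold lower, where the background was 4.22% of 15911 genes, and Cldn5 (3.23%) was at least 2-fold higher, where it was 1.62%. Together these 3 (9.68%) stood against 5.85% of genes. The median log2 ratio was 0.21, against -0.03 for all genes, with 23 members above 0 and 8 below. Of all genes, 7409 were above 0 and 8502 below. Wild-type cells of 10 weeks were not analysed here, so age and genotype cannot be told apart in this comparison.

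Cdh1 read 1023 and 128 in 4-week and 10-week knockout Sertoli cells, against 734 in wild type. The 10-week array was 5.72-fold below wild type and 7.96-fold below the 4-week knockout, on 1 probe set. Nectin3 read 681 and 183 in the same knockout arrays, against 978 in wild type, and was 5.35-fold lower at 10 weeks. A further probe set read 499 and 156 against 782, and all 4 detected probe sets were below wild type at 10 weeks, the nearest at -0.08. The mean over them was -1.59. On the 10-week array both genes were thus close to the floor. Cdh1 is known in mice as a surface protein of spermatogonia that have not differentiated.

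Most germ cell markers were low on the same array. Of 15 spermatogonia and spermatocyte markers 11 were at least 2-fold lower at 10 weeks than in wild type, and their median log2 ratio was -1.42. Their summed level was 15352 and 4775 in 4-week and 10-week knockout cells, against 21753 in wild type. Sycp3, of the synaptonemal complex, read 2708 and 431, against 4176. Other markers of that list did not follow: Uchl1 read 2696 and 2060, against 2280, Kit 125 and 203, against 158, and Dmc1 137 and 149, against 115. For 11 spermatid markers the sums were 17239 and 4987, against 12329. Of these 11, 4 were at least 2-fold lower at 10 weeks than in wild type and 2 were above 0. The part of these markers in the Cdh1 and Nectin3 values was not tested.

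**Figure D4:**
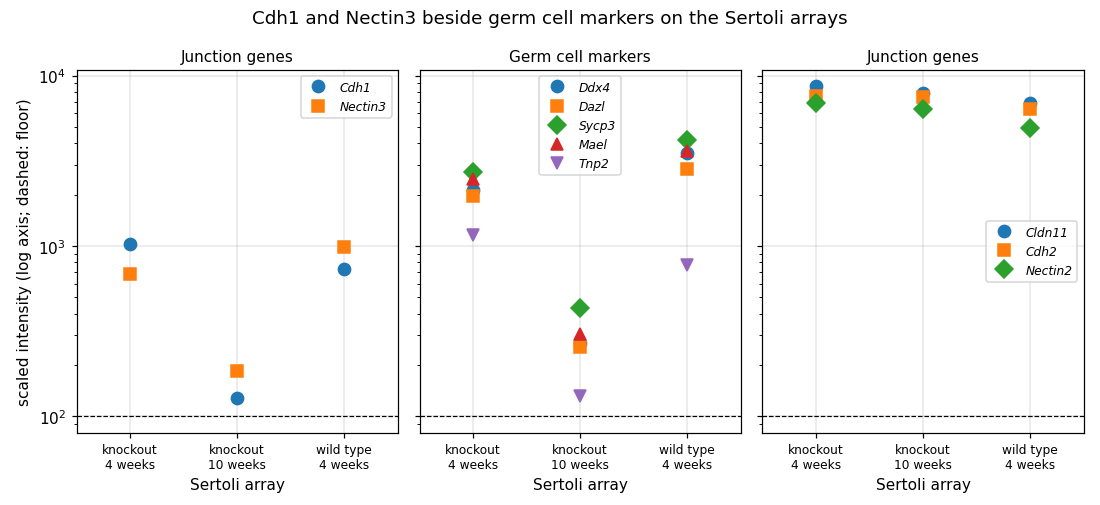
Scaled intensity (log axis) on the 3 Sertoli arrays of Cdh1 and Nectin3 (left), of 5 germ cell markers (middle) and of Cldn11, Cdh2 and Nectin2 (right), 1 point per gene and array, with a dashed line at the floor. Cdh1, Nectin3 and these 5 markers are lowest on the 10-week knockout array, whereas Cldn11, Cdh2 and Nectin2 read 4894 or more on all 3. The 5 were picked from lists in which 2 of 15 spermatogonia and spermatocyte markers and 2 of 11 spermatid markers stood above wild type at 10 weeks.

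Of the 31 measured members, 18 were higher and 5 lower than wild type at 10 weeks by more than the probe set spread of 0.18. The share of all genes past that spread was not counted, and the spread came from bright genes, whereas some members were dim. Besides Cdh1 and Nectin3, the lower ones were Cxadr (-0.52, with all 4 detected probe sets below 0 and the lowest at -1.48), Pard3 (-0.55, with 1 of 3 detected probe sets below 0 and a mean of 0.10) and Espn (at least 1.40-fold lower). Cldn5 read 131 and 295 in 4-week and 10-week knockout cells, against 133 in wild type, 2.22-fold higher at 10 weeks on 1 dim probe set. Jam3 read 1099 and 1495, against 832 (log2 ratio 0.85 at 10 weeks, and 0.42 on its second probe set). F11r had 0.46 and 0.37 at 10 weeks and Itga6 0.62 and 0.74. Cldn11 (0.21), Tjp1 (0.06), Cdh2 (0.22 and 0.12), Ctnnb1 (0.07 to 0.15) and Gja1 (0.09 to 0.24 over 6 probe sets) lay close to wild type.

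Between the knockout ages, 3 of 31 members (9.68%) were at least 2-fold higher at 10 than at 4 weeks, where the background was 4.19% of 15849 genes, and another 3 (9.68%) at least 2-fold lower, where it was 3.51%. In either direction 19.4% of the members were past 2-fold, against 7.70% of genes. Those higher were Cldn5 (2.24-fold), Dsg2 (2.22-fold, 1499 against 675) and Pkp2 (2.26-fold, 781 against 345). Dsg2 and Pkp2 are partners in the desmosome. All 5 detected Dsg2 probe sets were above 0, the lowest at 0.16, and 1 of 3 Pkp2 probe sets was at -0.03. Those lower were Cdh1, Nectin3 (3.73-fold) and Espn (at least 3.20-fold). For Nectin3, 1 of 4 detected probe sets was at 0.06 and the mean was -1.03. With a floor of 0.4 of the trimmed mean Espn was at -0.68, under 2-fold. Ocln stood at -0.19 on its brighter probe set and -0.74 on the dimmer. The median was 0.05. These ratios share the 10-week array with the comparison to wild type, and they rest on the 4-week array with the high 18S signal. Set against wild type instead, Dsg2 stood at 0.25 and Pkp2 at 0.84 at 10 weeks.

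In TM4, the junction genes on the array with ERM transfection were close to those on the untransfected array. Etv5 itself read 473 with and 405 without ERM on its brightest probe set, and 475 and 314 on another. None of 29 measured members was at least 2-fold higher or lower, where the background was 0.303% and 0.421% of 16158 genes. Counting both directions together the background was 0.724%. The members' median log2 ratio was 0.06, against 0.00 for all genes. Of the 29, 9 were higher and 3 lower by more than the probe set spread of 0.15. The share of all genes past that spread was not counted. Cdh2 was furthest above 0 among members well over the floor, at 1558 with and 1023 without ERM (0.61, and 0.37 on its other probe set). Espn read 408 with and 302 without ERM (0.43). Esam read 92.8 with and 149 without ERM, which is at least 1.49-fold lower but near the floor. On their brightest probe sets Cldn11, F11r, Tjp1, Nectin2, Gja1, Vcl, Ctnna1, Ctnnb1 and Ctnnd1 had log2 ratios between -0.11 and 0.15. Other probe sets reached -0.47 for Nectin2, -0.39 for Ctnna1, -0.31 for Ctnnb1 and 0.24 for Gja1. All 3 detected probe sets of Ctnna1 and of Ctnnb1 were below 0. The brightest probe sets of Ocln, Jam2, Cdh1 and Dsg2 were under the floor on both TM4 arrays. Dimmer ones of 3 of these genes were not, and the highest in TM4 read 696 with and 662 without ERM for Dsg2, 313 and 262 for Jam2, and 142 and 127 for Ocln.

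Further junction genes, grouped in the same way but outside the 33, gave the surroundings of these results. The background for the 4-week knockout against wild type was 0.681% of genes at least 2-fold higher and 3.18% lower. On the 4-week Sertoli arrays, 1 of 23 other tight junction genes and 2 of 22 regulators of the ectoplasmic specialization were at least 2-fold higher in the knockout and none lower, while 2 of 11 other gap junction genes and 2 of 9 other desmosome and hemidesmosome genes were lower and none higher. The genes concerned were Cldn23 (1359 in knockout against 611 in wild type), Myo7a (2014 against 684), the focal adhesion gene Zyx (2413 against 1106), the connexin gene Gjc1 (167 against 436), the pannexin gene Panx1 (280 against 907), the plakophilin gene Pkp1 (166 against 703) and Dst (1231 against 3254), which anchors filaments at hemidesmosomes. None of 13 other adherens and nectin genes was past 2-fold there. At 10 weeks Panx1 read 898, Pkp1 629 and Dst 3005, near wild type, whereas Gjc1 stayed low at 173 and Zyx high at 2306. For Panx1, Pkp1 and Dst the 4-week knockout array alone was low.

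At 10 weeks against wild type, 2 of 24 other tight junction genes (Pard6g and Magi3), 1 of 13 other adherens genes (Cdh11, 424 against 119) and 2 of 22 regulators (Zyx and Pxn) were at least 2-fold higher and none lower, and other gap junction genes held 1 higher (Gja4) and 1 lower (Gjc1) of 11. None of 9 other desmosome genes was past 2-fold. The background was 1.62% of genes higher and 4.22% lower. Between the knockout ages, 2 of 25 other tight junction genes, 2 of 13 adherens genes, 1 of 22 regulators, 2 of 11 gap junction genes and 2 of 8 desmosome genes were at least 2-fold higher at 10 weeks, and 1 regulator (Myo7a, 494 against 2014) was lower. The higher regulator was the actin bundler Fscn1 (8600 against 3159, all 4 probe sets higher). Between the ages the background was 4.19% of genes higher and 3.51% lower.

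Wild-type Sertoli cells against TM4 gave mixed directions outside the 33, where the background was 17.8% of genes at least 2-fold higher and 16.1% lower. Of 27 other tight junction genes 4 (14.8%) were at least 2-fold higher and 4 (14.8%) lower, and of 14 other adherens genes 3 (21.4%) and 3 (21.4%). Of 23 regulators 5 (21.7%) were higher and 6 (26.1%) lower. For 12 gap junction genes these counts were 1 (8.33%) and 4 (33.3%), and for 9 desmosome genes 2 (22.2%) and 1 (11.1%). Cdh11, a cadherin of mesenchymal cells, read 119 in wild-type Sertoli cells and 3841 in TM4. Pard6b, a polarity gene, read 1254 and 150, and Eps8, an actin regulator of the barrier, 410 and 3434. In TM4 with ERM against without, none of the further genes in these 5 lists was past 2-fold, where the background was 0.724%. In testis 1 of 13 other tight junction genes (Prkcz, a polarity kinase) was at least 2-fold lower in knockout, where the background was 0.852%. The remaining 4 lists had none past 2-fold.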

How the data were processed

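The files deposited by the authors give each probe set an intensity, linear and never under 1. Software and scaling are not stated in the labels or file headers. The array designs differed, with 45101 probe sets for Sertoli cells and TM4 and 12488 for testis, and each design was treated on its own. Each array was scaled to a trimmed mean of 500, leaving out controls and the lowest and highest 2%, readings under 100 were set to 100, and log2 ratios were taken. Only probe sets with a single annotated gene entered (34945 covering 18193 genes, and 10833 covering 8251), and the brightest by mean over a design's arrays represented each gene. All 33 members are reported. Genes of the further lists were named when past 2-fold, if the brighter reading reached 200 and no detected probe set disagreed, up to 4 per list and comparison. Prkcz was named after its value was seen. The members and lists were chosen with earlier results of these data known. With 1 array per group, 6 comparisons were described without a test, and the number of arrays limits precision. The steps were tested on simulated data. The 7 alternatives were the values as deposited, centred ratios, quantile normalization, a lower floor (0.1 of the trimmed mean) and a higher one (0.4), averaging a gene's probe sets, and dropping those that may cross-hybridise. Requiring agreement of all probe sets was added after seeing the data. Gene identifiers were matched to GRCm38.p6 for names only, and promoter sequences came from RefSeq on that build. Python 3.11.15, numpy 2.4.6, pandas 2.3.3 and matplotlib 3.10.9 were used.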

Additional observations from a re-analysis of the deposited data

Results flagged for a closer look

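For the junction genes below, the knockout to wild-type log2 ratio had opposite signs in a pair of settings. These are values of the brightest probe set, each beyond the probe set spread. The difference was not tested, since each setting had 1 array per group, and the Sertoli values at both ages share the wild-type array. Between 4-week and 10-week knockout Sertoli arrays, Cdh1 stood at 0.48 and -2.51, Espn at 1.19 and -0.49 (the second a bound), Itga6 at -0.23 and 0.62, Dsg2 at -0.90 and 0.25, and Pkp2 at -0.34 and 0.84. Between testis and Sertoli cells at 4 weeks, Pard3 stood at 0.37 and -0.31, Itga6 at 0.30 and -0.23, and Dsg2 at 0.34 and -0.90. For Pkp2 the 4-week Sertoli value turned to 0.26 when probe sets prone to cross-hybridisation were left out. On its other probe set Itga6 stood at -0.07 in 4-week Sertoli cells, within the spread. At 10 weeks 1 Dsg2 probe set stood at -0.08 and 1 Pkp2 probe set at -0.30.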

How the results depend on the processing

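The members' median log2 ratio moved by less than the spread among probe sets of 1 gene under all 7 alternatives in 5 of the 6 comparisons. The exception was Sertoli cells against TM4, where it became 1.37 with the values as deposited, which keep the difference in overall level between the arrays. The count of members past 2-fold became 1 in 4-week Sertoli cells with the higher floor (0.4 of the trimmed mean), because Espn then stood at 0.68. That floor also took Espn under 2-fold against TM4 (-0.59) and between the knockout ages (-0.68). The count became 1 in TM4 with the floor at 0.1, where Tjp3 stood at 1.18. In testis it became 0 both with the mean over probe sets and without probe sets prone to cross-hybridisation. Both Gja1 probe sets on the testis arrays are of that kind, so Gja1 then had no value. Of 1233 member values under the 7 alternatives, 1137 moved by less than the probe set spread, 96 by more, and no member past 2-fold changed direction. With the floor at 0.4, Cldn5 stood at 0.56 at 10 weeks against either 4-week array, under 2-fold. With the mean over probe sets, Dsg2 and Pkp2 stood at 0.54 and 0.57 between the knockout ages, also under 2-fold. No paired analysis was possible because every group held 1 array. Dim genes are limited most, since a reading near the floor of 100 turns a ratio into a bound.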
